A study of Homo sapiens with 6 samples.

Results

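The small nucleolar RNAs (snoRNAs) read by an expression array in PANC-1 cells were examined, with their annotated host genes, after treatment with anlotinib. All probe sets whose array annotation held a symbol starting with SNORA, SNORD or SCARNA, alone or beside a host gene, were taken, which gave 85 of the 39219 probe sets in the deposited table. PANC-1 is an established human cell line from a pancreatic ductal carcinoma, and anlotinib is a drug that blocks receptor tyrosine kinases of more than one family. Total RNA of cells given 5.535 µM anlotinib for 48 h (3 arrays) was compared with that of cells given the vehicle DMSO, spelled DSMO in some labels (3 arrays). A single cell line was used and the labels do not say whether the arrays of a group came from separate cultures, so the errors given here measure the spread between these arrays, which may be technical. The group of transcripts was singled out for its change in this same contrast, so the fold changes of its members are given as a description, without p-values.

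Box H/ACA snoRNAs (SNORA) guide the conversion of uridine to pseudouridine in ribosomal RNA, in a particle with the pseudouridine synthase DKC1 and the proteins NHP2, NOP10 and GAR1. Box C/D snoRNAs (SNORD) guide methylation of the ribose with the methyltransferase FBL and the proteins NOP56, NOP58 and SNU13, and the Cajal body RNAs (SCARNA) guide the same changes in spliceosomal RNAs. Most human snoRNAs lie in introns of host genes, many of which encode ribosomal proteins, translation factors or the noncoding snoRNA host genes (SNHG), and are trimmed from the spliced-out intron, so that the mature snoRNA carries no poly(A) tail. The labelling used for these arrays starts from poly(A), and a probe set on a snoRNA can also read any longer transcript that holds the same stretch.

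The 85 probe sets carried 70 different annotations and named 72 snoRNAs, of which 54 were SNORA, 15 SNORD and 3 SCARNA. In the RefSeq table of GRCh38.p14, 71 of the 72 lay within the bounds of another gene, the exception being SNORA50C, with strand not considered. Of the probe sets, 62 were H/ACA, 18 were C/D and 5 were SCARNA. The annotation gave the snoRNA alone for 42 and the snoRNA with its host for 43. For 35 the array's target was the snoRNA's own RefSeq record, and the other 50 were designed on another sequence. The names of 45 ended in _x_at or _s_at, the array's marks for probes that also match other transcripts, so members of a family such as SNORA7A and SNORA7B cannot be told apart there.

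Beginnings of host transcripts are shown because many of the members with large differences sit in genes of the translation machinery, a class known for a 5′ terminal oligopyrimidine (TOP) tract, which is an unbroken run of C and T that opens with C at the first base. Each line gives the 30 bases before the RefSeq start and the first 20 bases from it (RefSeq, GRCh38.p14), 5′ to 3′ on the strand of the gene, with the run from the first base in capitals. The windows lie at chr11:809937-809986 on the plus strand (RPLP2), chr6:132814539-132814588 on the plus strand (RPS12), chr11:8682762-8682811 on the plus strand (RPL27A), chr3:186783547-186783596 on the plus strand (EIF4A2), chr11:93741476-93741525 on the minus strand (TAF1D) and chr1:28581854-28581903 on the minus strand (SNHG12). Those of EIF5 at chr14:103334207-103334256 on the plus strand and of EIF4G2 at chr11:10807977-10808026 on the minus strand are set beside them as hosts without such a run at the annotated start.
RPLP2: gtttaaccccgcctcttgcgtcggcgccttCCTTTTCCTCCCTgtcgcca
RPS12: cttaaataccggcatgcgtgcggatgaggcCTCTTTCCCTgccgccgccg
RPL27A: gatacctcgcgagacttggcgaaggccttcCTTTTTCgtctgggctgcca
EIF4A2: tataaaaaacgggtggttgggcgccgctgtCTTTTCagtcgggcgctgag
TAF1D: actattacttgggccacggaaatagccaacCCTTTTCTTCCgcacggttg
SNHG12: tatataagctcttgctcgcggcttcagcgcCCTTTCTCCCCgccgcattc
EIF5: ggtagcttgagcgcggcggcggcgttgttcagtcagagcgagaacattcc
EIF4G2: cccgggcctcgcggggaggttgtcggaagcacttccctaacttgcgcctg

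Of the 33 hosts named in the annotations, 23 had a start in the sequence table, and 9 of these (39.1%) opened with a run of at least 5 bases, read on the gene's own strand only. Such a run opened 1104 (4.04%) of all 27305 genes there. The runs measured 13 bases in RPLP2, 11 in RPS3, SNHG12 and TAF1D, 10 in RPS12, 7 in EEF1A1 and RPL27A, and 6 in EIF4A2 and SNHG32. A run is a match of letters at one annotated start, and EIF5, EIF4G2 and RPL32, whose snoRNAs were among those with large differences, had no such run at the first base. The other way round, the members annotated to RPS3 and EEF1A1, which have a run, gave log2 differences of 0.05, 0.06 and -0.03.

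The anlotinib arrays differed from the DMSO arrays at many transcripts, and the background was measured over the 39063 probe sets tested. A probe set was called when its mean differed by at least 2-fold and its limma p-value, adjusted over all of them by Benjamini-Hochberg, was under 0.05. By that rule 4.09% of all probe sets were called, 2.38% higher and 1.71% lower in anlotinib. Every anlotinib array lay above every DMSO array in 31.5% of them and below in 31.6%, and their median log2 difference was -0.02. Within a group the arrays correlated at r = 0.998 and between the groups at r = 0.977 to 0.978, over probe sets, which are not independent replicates.

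Most of the snoRNA-annotated probe sets read higher in anlotinib and none fell by 2-fold. Of the 85, 21 met the rule for calls, all of them higher (24.7%, where 2.38% of all probe sets were called higher), and they covered 16 annotations and 18 snoRNAs. The count was 9 without _x_at and _s_at probe sets, and 12 once the dimmest 40% of all probe sets were dropped. The median log2 difference, anlotinib minus DMSO, was 0.33, with quartiles of 0.04 and 0.97 and a range of -0.24 to 2.47. Values were above 0 in 67 probe sets and below 0 in 18. All anlotinib arrays lay above all DMSO arrays in 54, below them in 5, and the groups overlapped in 26. The members stood on the called side of the rule down to RPL32/RPL32P3/SNORA7A/SNORA7B at 1.09, and the 3 nearest on the other side were SNORD48/SNHG32 at 0.97, SNORA84 at 0.96 and SNORA80A at 0.92.

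**Figure D1:**
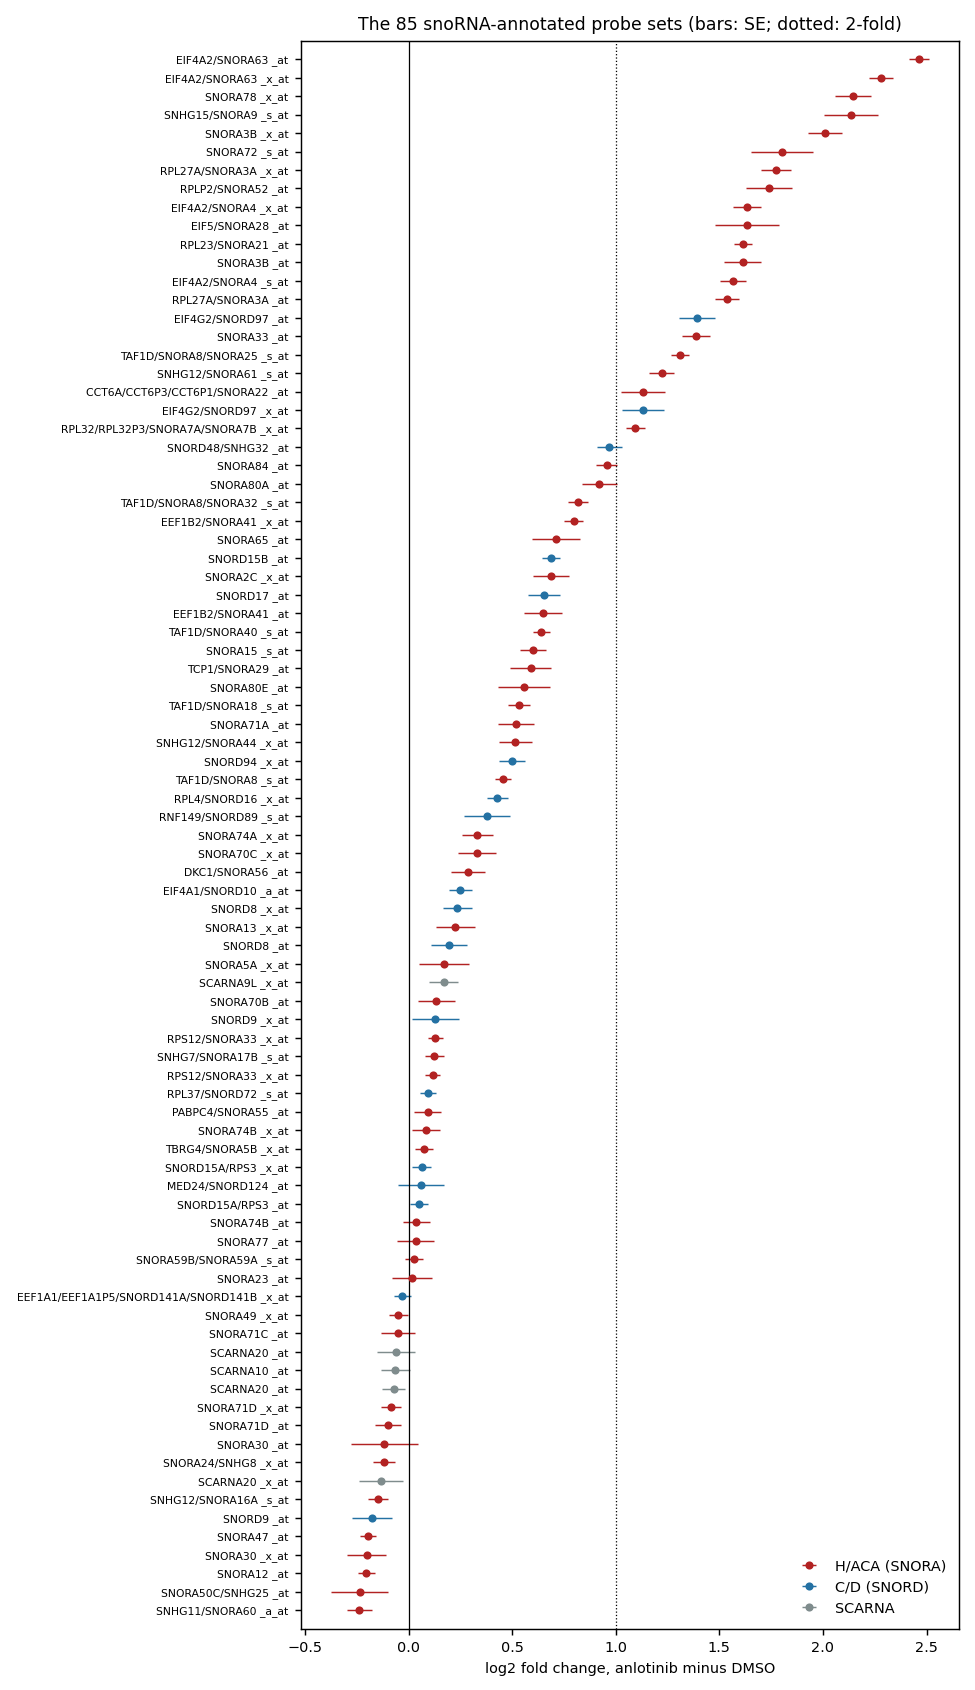
Log2 difference of each of the 85 snoRNA-annotated probe sets (anlotinib minus DMSO, 3 arrays each), ordered by size, with the standard error of the fit as bars and the class of snoRNA as colour. The values run from -0.24 to 2.47, 67 of them lie right of 0, and the 21 past the dotted 2-fold line are 19 H/ACA and 2 C/D probe sets.

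H/ACA annotations held 19 of the 21 called probe sets, out of 62, with a median log2 difference of 0.52. C/D annotations held 2 of 18, with a median of 0.24. The 5 SCARNA probe sets had a median of -0.07 and none was called. The 2 large classes differed by 0.28 in their medians, and by 0.79 with the lowest 40% of signals left out. Split by annotation, H/ACA probe sets named with a host had a median of 0.72 (14 of 32 called), H/ACA alone 0.20 (5 of 30), C/D with a host 0.25 (2 of 11) and C/D alone 0.24 (0 of 7). The medians of the classes were apart among probe sets that also named a host and close among those that did not. Probe sets on the snoRNA's own RefSeq record had a median of 0.17 (7 of 35 called), and those designed on another sequence had 0.54 (14 of 50). By mean signal over all 6 arrays, called probe sets numbered 0 of 9 under a log2 signal of 5, 9 of 45 between 5 and 7, 12 of 24 between 7 and 10, and 0 of 7 at 10 or more.

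Members were grouped by the annotated host, or by the gene that holds them where none was named, a grouping made with these values known. Those of ribosomal protein genes had a median log2 difference of 1.09 with 9 of 17 called. Those of translation factor genes had 1.26 with 7 of 12 called, namely 4 probe sets of EIF4A2, 2 of EIF4G2 and 1 of EIF5. Members of SNHG genes had 0.12 with 3 of 15 called, and the 41 of other genes had 0.17 with 2 called. Each of the first 2 groups also held members near 0, down to 0.05 and -0.03. The member at -0.03 was placed by its annotation to EEF1A1, while its snoRNAs lie within EEF1A1P5 and EEF1A1P13 by RefSeq bounds. The arrays read whole cultures, so a change in the share of cells that carry a transcript cannot be told apart from a change in RNA per cell.

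**Figure D2:**
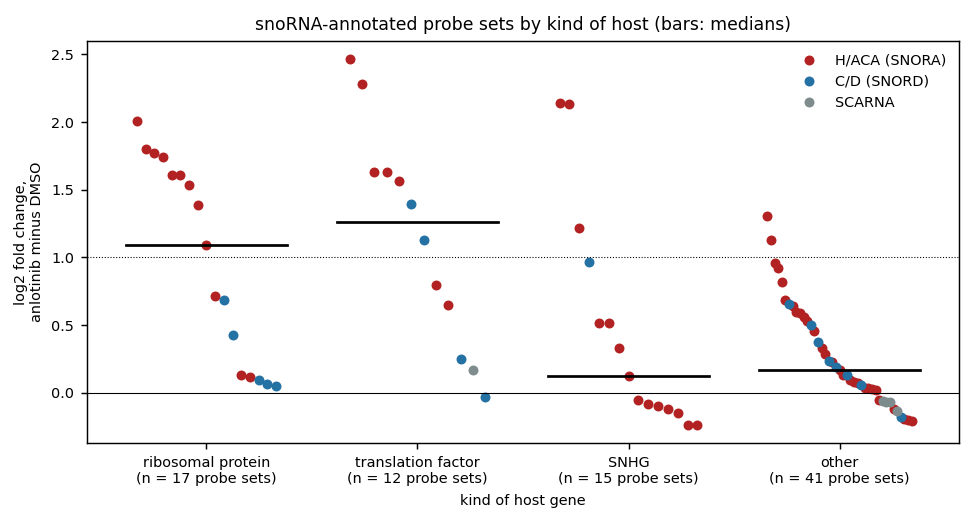
Log2 difference of the 85 probe sets (y axis, anlotinib minus DMSO) by the kind of host gene (x axis), coloured by class, with black bars at the medians of 1.09, 1.26, 0.12 and 0.17. The host is the annotated one, or the gene that holds the snoRNA where none was named. Ribosomal protein and translation factor genes hold 16 of the 21 points above the dotted 2-fold line, and each kind of host also has points near 0.

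EIF4A2, a helicase subunit of the cap-binding complex of translation, gave the largest difference of the 85 members through SNORA63, an H/ACA guide for the RNA of the large ribosomal subunit. One EIF4A2/SNORA63 probe set read 8.19, 8.14 and 8.05 on the log2 scale in DMSO and 10.56, 10.61 and 10.60 in anlotinib. The other probe set of this annotation read 8.81, 8.72 and 8.61 against 11.01, 10.95 and 11.01. In both, every anlotinib array lay more than 2 log2 units above every DMSO array. The log2 differences were 2.47 (SE 0.05, a fold of 5.52) and 2.28 (SE 0.06, a fold of 4.85). SNORA4, another H/ACA RNA of EIF4A2, gave 1.63 (SE 0.07) and 1.57 (SE 0.06) on its 2 probe sets.

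The other translation factor genes split. EIF5/SNORA28, whose host stimulates GTP hydrolysis at the start codon, read 5.05, 4.72 and 4.63 in DMSO and 6.16, 6.44 and 6.70 in anlotinib, a log2 difference of 1.63 with the widest error of the called members (SE 0.16). EIF4G2/SNORD97, in the gene of a cap-independent initiation factor, held both called C/D probe sets, with 5.09, 5.45 and 5.26 in DMSO against 6.69, 6.66 and 6.63 in anlotinib (1.39, SE 0.09) and a second probe set at 1.13 (SE 0.10). The groups were apart in all of these. EEF1B2/SNORA41, in the gene of an exchange factor of elongation, gave 0.80 and 0.65, and EIF4A1/SNORD10 gave 0.25. SCARNA9L, inside EIF1AX, gave 0.17. The probe set named for EEF1A1, its pseudogene EEF1A1P5 and SNORD141A and SNORD141B, one of the 3 brightest C/D members, read 14.79, 14.86 and 14.86 against 14.78, 14.83 and 14.79, with overlapping groups and a difference of -0.03.

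Ribosomal protein genes held the next group. SNORA3A and SNORA3B, related H/ACA RNAs of RPL27A, were read by 4 probe sets, all called. SNORA3B alone read 5.93, 6.16 and 6.17 in DMSO and 7.99, 8.18 and 8.12 in anlotinib on one (2.01, SE 0.08) and differed by 1.61 (SE 0.09) on the other. RPL27A/SNORA3A differed by 1.77 (SE 0.07) and 1.54 (SE 0.06). No array of one group came within 1 log2 unit of the other in any of the 4 probe sets.

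SNORA72, which lies inside RPL30, read 6.61, 6.25 and 6.10 in DMSO and 8.16, 7.91 and 8.31 in anlotinib (1.80, SE 0.15). RPLP2/SNORA52, in the gene of a protein of the ribosomal stalk, read 6.66, 6.26 and 6.26 against 8.21, 8.05 and 8.14 (1.74, SE 0.11). RPL23/SNORA21 read 5.67, 5.70 and 5.64 against 7.31, 7.30 and 7.23 (1.61, SE 0.04). The first DMSO array was the highest of its group for SNORA72 and SNORA52, and the groups did not overlap in any of these.

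SNORA33, inside RPS12, showed how far probe sets whose annotation names one snoRNA could part. None of its 3 probe sets was designed on the snoRNA's own RefSeq record, and which transcript each one reads was not tested. The probe set annotated to SNORA33 alone read 6.05, 5.90 and 5.79 in DMSO and 7.30, 7.31 and 7.29 in anlotinib, a log2 difference of 1.39 (SE 0.07). The 2 probe sets annotated to RPS12 with SNORA33 read 14.31, 14.30 and 14.32 against 14.44, 14.45 and 14.43, and 14.14, 14.13 and 14.18 against 14.27, 14.28 and 14.25, with differences of 0.13 and 0.11. All 3 had every anlotinib array above every DMSO array, but the difference was far smaller on the bright probe sets that also named the host.

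RPS3 holds a pair of C/D RNAs that guide methylation of large-subunit RNA, and there the split was between probe sets of different snoRNAs. SNORD15B alone read 6.32, 6.29 and 6.25 against 7.02, 6.96 and 6.94 (0.69, SE 0.04), with the groups apart, while SNORD15A/RPS3 gave 0.05 and 0.06 on its 2 probe sets, with overlapping groups. The remaining members in ribosomal protein genes were RPL32/RPL32P3/SNORA7A/SNORA7B (1.09, SE 0.05), SNORA65 inside RPL12 (0.71, SE 0.12), RPL4/SNORD16 (0.43, SE 0.05) and RPL37/SNORD72. The latter, bright at 14.65 on each DMSO array, read 14.75, 14.71 and 14.77 in anlotinib, a difference of 0.09.

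**Figure D3:**
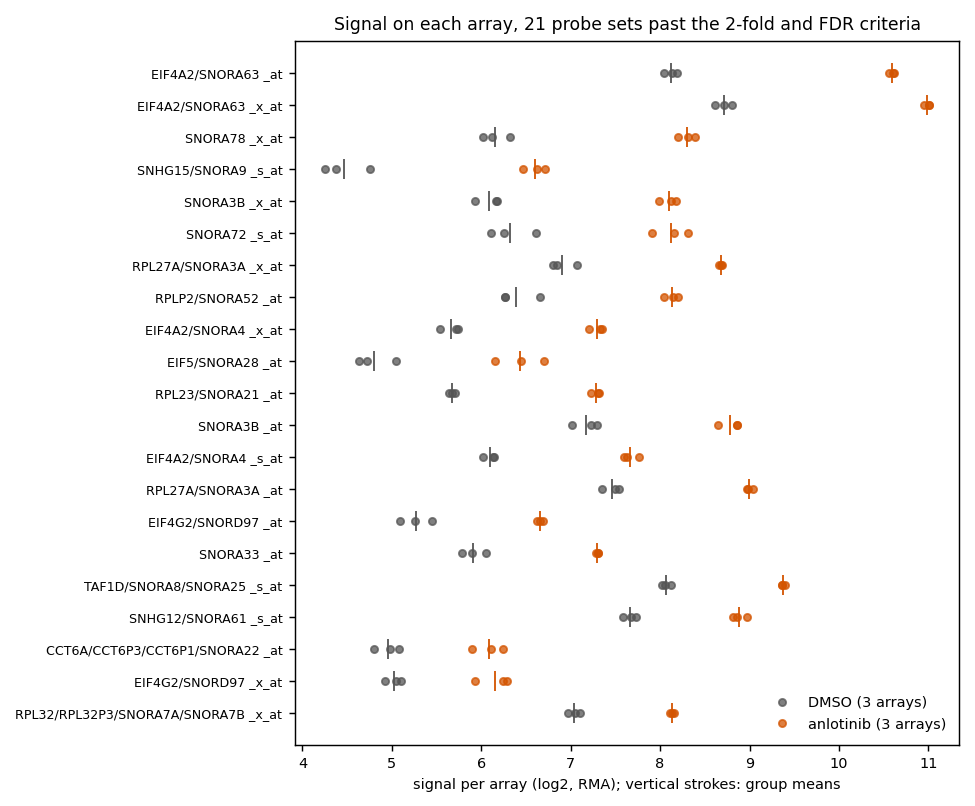
Log2 signal on each of the 3 DMSO (grey) and 3 anlotinib (orange) arrays for the 21 snoRNA-annotated probe sets past the rule for calls, with group means as vertical strokes. In each row all orange points lie right of all grey points, with mean gaps from 1.09 to 2.47.

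SNHG genes are transcribed mainly as carriers of snoRNAs, and the differences of their members were spread from 2.14 to -0.24. SNORA78, inside SNHG9, read 6.02, 6.12 and 6.32 in DMSO and 8.31, 8.20 and 8.39 in anlotinib (2.14, SE 0.09). SNHG15/SNORA9 read 4.26, 4.76 and 4.38 against 6.46, 6.62 and 6.71 (2.14, SE 0.13). The groups lay far apart in both, from low signals in DMSO.

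SNHG12 carries several H/ACA RNAs, and its 3 probe sets did not move together. SNHG12/SNORA61 read 7.68, 7.73 and 7.58 against 8.86, 8.82 and 8.97 (1.22, SE 0.06). SNHG12/SNORA44 gave 0.52 (SE 0.08). SNHG12/SNORA16A, the brightest of them, read 11.91, 11.90 and 11.99 in DMSO and 11.80, 11.84 and 11.73 in anlotinib (-0.15, SE 0.05), with every anlotinib array below every DMSO array.

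SNORD48, a C/D RNA often used to normalise small RNA measurements, was read with its host SNHG32 at 6.68, 6.75 and 6.68 against 7.56, 7.71 and 7.76 (0.97, SE 0.06), just short of 2-fold. The 4 probe sets on SNORA71 family members inside SNHG17 ran from -0.10 to 0.52. SNORA74A gave 0.33, SNHG7/SNORA17B 0.12, SNORA24/SNHG8 -0.12, and SNORA50C/SNHG25 and SNHG11/SNORA60 both -0.24. The SNORA50C/SNHG25 value had a wide error (SE 0.14), since the second anlotinib array read 5.32 and the others 5.80 and 5.88.

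Among the other hosts, TAF1D, a subunit of the factor that recruits RNA polymerase I to ribosomal DNA, carried 5 probe sets, all with the groups apart. TAF1D/SNORA8/SNORA25 read 8.06, 8.12 and 8.02 against 9.37, 9.36 and 9.40 (1.31, SE 0.04). The others gave 0.82 with SNORA8 and SNORA32, 0.64 with SNORA40, 0.53 with SNORA18 and 0.46 (SE 0.04) with SNORA8. The 5 values thus spread over a range larger than their errors within a single host.

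CCT6A/CCT6P3/CCT6P1/SNORA22, named for a chaperonin subunit and its pseudogenes, read 5.08, 4.98 and 4.80 in DMSO and 5.90, 6.24 and 6.11 in anlotinib (1.13, SE 0.10). SNORA84, inside the isoleucyl-tRNA synthetase gene IARS1, read 6.84, 6.93 and 6.81 against 7.83, 7.87 and 7.76 (0.96, SE 0.05). SNORA80A, inside URB1, a gene of ribosome biogenesis, read 5.72, 5.69 and 5.97 against 6.71, 6.80 and 6.63 (0.92, SE 0.09). These 3 had separate groups, with the last 2 just under the limit.

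The remaining 33 probe sets in other genes ran from -0.20 to 0.69. Among the lowest were SNORA12, inside CWF19L1, at 5.82, 5.84 and 5.88 against 5.65, 5.66 and 5.61 (-0.20, SE 0.04) and SNORA47, inside ZBED3, at 5.77, 5.75 and 5.76 against 5.59, 5.55 and 5.54 (-0.20, SE 0.04). Both had the groups apart at a low signal. Among the C/D RNAs in such genes, SNORD17 gave 0.65, SNORD94 0.50, RNF149/SNORD89 0.38 and MED24/SNORD124 0.06, and the 4 probe sets of SNORD8 and SNORD9, both inside CHD8, ran from -0.18 to 0.24. DKC1/SNORA56, in the gene of the H/ACA pseudouridine synthase itself, gave 0.28 (SE 0.08). SCARNA20 gave -0.06, -0.07 and -0.14 on 3 probe sets and SCARNA10 -0.07, all with overlapping groups.

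Probe sets that shared an annotation read alike. In 14 annotations with more than 1 probe set (29 probe sets), the differences within an annotation had a median of 0.08 and reached at most 0.40, in SNORA3B. Both or all probe sets of an annotation fell on the same side of the rule in all 14. Such probe sets share target sequence and are not independent readings.

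Probe sets annotated to the hosts alone were not used in choosing the members and were read by the limma test with Benjamini-Hochberg adjustment over all 39063 probe sets. For 26 of the 33 hosts there were 69 of them, of which 8 were called higher (11.6%, against 2.38% of all probe sets) and 0 lower. Without the fold limit, 42 were higher and 4 lower at a limma adjusted p under 0.05. Over all probe sets, 28.3% were higher and 28.3% lower at that level. None of the 39 with a mean log2 signal of 10 or more was called, and their median difference was 0.15. All 8 calls came from the 30 dimmer probe sets, whose median was 0.32. These were one of EIF5 (2.74), one of RPL27A (2.18), 3 of EIF4A1 (1.67, 1.65 and 1.41), one of EIF4A2 (1.46), one of RPL32 (1.27) and one of RPL37 (1.06), with limma adjusted p-values from 1.09e-06 to 0.000164. The EIF4A1 probe set at 1.65 lay close to the signal limit of 10, with means of 9.15 in DMSO and 10.80 in anlotinib.

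Set against the same host's own probe sets, the snoRNA-annotated ones differed by a median of 0.13 over the 26 hosts (range -0.96 to 1.55, above 0 in 16 and below in 10). The standard error of such a gap was taken from the gaps on the single arrays. The gap reached 0.7 in 9 hosts. RPLP2 had the widest, 1.55 (SE 0.15). Its main probe set read 14.55, 14.60 and 14.60 in DMSO and 14.76, 14.76 and 14.75 in anlotinib (0.18, limma adjusted p = 0.00583), against 1.74 for SNORA52. The RPL23 probe set read 13.83, 13.85 and 13.85 against 13.97, 13.97 and 13.95 (0.12, limma adjusted p = 0.0249), a gap of 1.49 (SE 0.03) to SNORA21. In both genes the host signal was higher in anlotinib, by a small fraction of the difference at the snoRNA. These 2 host probe sets had DMSO means of 14.58 and 13.84, where the highest signals on the arrays were 15.08 to 15.16. The other RPLP2 host-alone probe set, which also entered the gap, was dimmer, with a DMSO mean of 7.49. It differed by 0.21 (limma adjusted p = 0.00681). The snoRNA probe sets had DMSO means of 6.39 and 5.67. The part of signal level in these gaps, and in those of other bright hosts, was not tested.

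EIF4A2 had a gap of 1.11 (SE 0.07). Its 4 host-alone probe sets differed by 0.34, 0.85, 0.85 and 1.46, the smallest on the brightest one, which read 12.48, 12.51 and 12.56 against 12.84, 12.95 and 12.80. The other hosts past 0.7 were EIF4G2 (1.06, SE 0.09), EIF5 (1.02, SE 0.20), CCT6A (0.90, SE 0.12), SNHG32 (0.89, SE 0.05), EEF1B2 (0.84, SE 0.10) and RPL32 (0.71, SE 0.04). The CCT6A gap rests on the annotation, since SNORA22 lies within CCT6P1 and LINC03006 by RefSeq bounds. SNORA15, which lies inside CCT6A, gave 0.60 and was not part of that gap. In RPL32 the 3 host-alone probe sets differed by -0.09, -0.02 and 1.27, the last above the 1.09 of the snoRNA-annotated one. In EIF5 the 7 host-alone probe sets were spread from 0.07 to 2.74. The one at 2.74 read 4.83, 5.24 and 4.85 in DMSO and 7.68, 7.56 and 7.89 in anlotinib, above the difference at SNORA28.

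The order was turned in EIF4A1, at -0.96 (SE 0.07), where 3 of 4 host-alone probe sets rose and the member with SNORD10 gave 0.25, and in RPL27A, at -0.53 (SE 0.15). The only RPL27A probe set without a snoRNA was dim, at 5.59, 5.49 and 5.76 against 7.83, 7.80 and 7.75 (2.18, limma adjusted p = 1.67e-06). The hosts with the smallest gaps were SNHG11 (-0.02), DKC1 (0.05) and SNHG8 (-0.06).

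**Figure D4:**
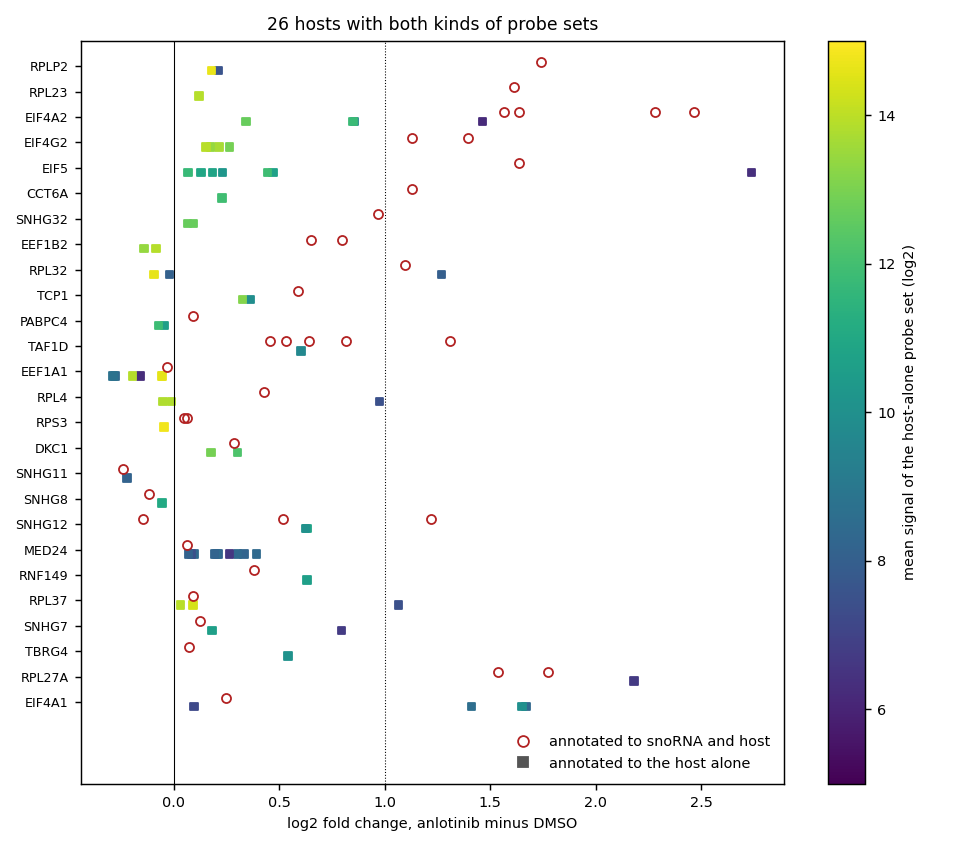
Log2 differences (x axis, anlotinib minus DMSO) for the 26 hosts with both kinds of probe sets, as open circles for probe sets annotated to snoRNA and host and as squares for the host alone, whose colour gives the mean log2 signal. The bright squares of RPLP2, RPL23 and EIF4G2 lie near 0 while the circles lie past 1, and the squares past 1 have mean signals under 10.

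The same reading was made for 27 genes that hold a snoRNA whose annotation names no host, apart from genes already read as annotated hosts. Members named alone inside an annotated host, such as SNORA3B in RPL27A, SNORD15B in RPS3 and SNORA15 in CCT6A, thus entered neither reading. The gap had a median of 0.34 and a range of -0.64 to 1.75. RPL30 had 4 probe sets at 0.03 to 0.08, none with a limma adjusted p under 0.05, against 1.80 for SNORA72. The RPL30 probe sets had DMSO means of 13.5 to 14.2, and SNORA72 one of 6.3. IARS1 fell by 0.51 to 0.57 on its 4 probe sets (limma adjusted p from 2.4e-05 to 5.72e-05), while SNORA84 was higher by 0.96. SNHG9 rose by 1.22 (limma adjusted p = 9.7e-06), against 2.14 for SNORA78.

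Of the other containing genes past 0.7, RPL12 gave -0.30 and -0.29 on its probe sets beside SNORA65 (a gap of 1.01), and URB1 gave -0.03 and 0.13 beside SNORA80A (0.87). In ASTN2 (1.10), ZBED3 (1.08) and NCAPD2 (0.74) the gap came from host probe sets that were lower, with ZBED3 at -1.27 and the lowest of ASTN2 at -1.06 called. KHDC4 rose on 3 probe sets (1.67, 1.31 and 1.14), the brightest with a DMSO mean of 10.4, while SNORA80E inside it gave 0.56. One SNX5 probe set was also called higher (1.09), while the brightest of that gene gave -0.59. In all, 5 of these 82 probe sets were called higher (6.1%) and 2 lower, where 2.38% of all probe sets were called higher and 1.71% lower.

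The gene lists that follow were chosen with earlier results of these data known, so their p-values describe the values and are not separate support. The protein partners of the snoRNAs did not pass the 2-fold limit. None of the 18 probe sets for 8 genes of the H/ACA particle and its assembly was called, but 12 were higher and 0 lower at a limma adjusted p under 0.05, with a median of 0.30, where 28.3% of all probe sets were higher at that level and 28.3% lower. GAR1, a core protein, had the largest values, 9.20, 9.29 and 9.23 against 9.99, 10.12 and 10.03 on one probe set (0.81, limma adjusted p = 1.39e-05) and 0.71 on the other. DKC1 gave 0.30 and 0.18. None of 30 probe sets for 11 genes of the C/D particle was called either, with 7 higher, 10 lower and a median of -0.01. FBL, the methyltransferase, gave -0.01, NOP58 0.42 and 0.38, and NOP56 -0.04 to 0.06. The assembly helicase RUVBL1 was lower (-0.76, limma adjusted p = 7.78e-06) and the assembly factor NUFIP1 higher on 3 of its 4 probe sets (up to 0.77, limma adjusted p = 1.09e-05).

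PHAX, the adaptor that carries small nuclear and C/D RNAs, was the one gene called among 23 measured for intron release and small RNA trimming. Its 4 probe sets differed by 1.15, 1.14, 1.10 and 0.97, 3 of them past both limits (limma adjusted p from 9.16e-06 to 6.46e-05), while 0 of 53 in the list were called lower. Over all probe sets, 2.38% were called higher and 1.71% lower, and the counts in this paragraph are to be read beside these shares. Among 39 probe sets of nonsense-mediated decay factors, only SMG8, a regulator of the kinase SMG1, was called (1.01, limma adjusted p = 7.44e-06), which is near the share over all probe sets. Transcripts known to be degraded by that pathway went both ways on 37 probe sets, with GADD45A (1.21) and one probe set of ATF3 (1.10) called higher and one each of SRSF7 (-1.04) and SRSF3 (-1.01) called lower. Other probe sets of SRSF7, SRSF3 and ATF3 had differences of the opposite sign or near 0. Of 23 probe sets for noncoding host genes, SNHG9 alone was called, and the list also holds SNHG32, SNHG12, SNHG8, SNHG7 and SNHG11 given above.

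Replication-dependent histone messages, which end in a stem-loop in place of a poly(A) tail, were called higher on 23 and lower on 2 of 47 probe sets (16 genes higher, H4C3 lower, median 0.97, range -1.38 to 4.32), where 2.38% of all probe sets were called higher and 1.71% lower, and the other 22 were not called. Like the lists above, this list was chosen with earlier results of these data known, so its p-values are descriptive. H2BC8 read 6.05, 6.24 and 5.82 in DMSO and 10.40, 10.32 and 10.35 in anlotinib (4.32, limma adjusted p = 5.96e-07). H2AC8 read 6.36, 6.53 and 6.42 against 10.74, 10.60 and 10.63 (4.22, limma adjusted p = 3.88e-07). H2BC11 (3.58) and H4C5 (3.44) followed, each with the groups far apart. The other listed RNAs without a tail, 24 in all, had no probe set in the table.

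Values that could bear on these readings were set beside them. The ratio of 3′ to 5′ control signal, a measure of RNA integrity, was -0.34 in DMSO and -0.35 in anlotinib for GAPDH on the log2 scale (exact two-sided permutation p = 0.6) and -0.14 and -0.09 for ACTB (exact p = 0.1, the smallest that 3 against 3 arrays allow). The 9 background controls with no human target differed by -0.04 to 0.10. Their mean log2 signals ran from 4.98 to 11.27, a range that also holds the median DMSO signal of the 85 members, 6.09. The Alu repeat control was higher by 0.21. A pair of unnamed controls described in the closing section was higher by 3.01 and 2.03. The part of labelling, of RNA without a poly(A) tail and of these controls in the snoRNA differences was not tested.

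Epithelial markers (keratins and EPCAM), which define such a line, read from 5.73 to 14.6, the lowest within the range of the markers given next. On 14 of 15 probe sets they were lower in anlotinib at a limma adjusted p under 0.05, where 28.3% of all probe sets were lower. One of them, of KRT8, was past 2-fold. The summed log2 signal was 177 to 178 in DMSO and 168 to 169 in anlotinib. Markers of leukocytes, endothelium, fibroblasts and acinar cells read between 4.18 and 6.79 on every array, and none was called.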

How the data were processed

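PANC-1 RNA from 3 DMSO and 3 anlotinib samples was labelled with a 3′ in vitro transcription kit and hybridised to PrimeView arrays, 1 sample per array. The authors deposited log2 expression values, made with RMA according to the submitters' processing notes, in which background correction, quantile normalization and probe summary set each value relative to the other arrays. Dim probe sets had been removed (the stated limit was the lowest 20% of signals), which limits what can be said of low transcripts. The number of arrays limits the precision.

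From these values, 73 control probe sets were set aside and 83 with a within-group coefficient of variation over 25% on the linear scale were left out, and the other 39063 entered a linear model of 2 groups (limma 3.58.1, run under R 4.3.3, moderated test, Benjamini-Hochberg adjustment, two-sided), with a fold of at least 2 and an adjusted p under 0.05 for a call. The study's methods used the same criteria. All 85 members passed. Python 3.11.15 with pandas 2.3.3 and SciPy 1.17.1 did the rest, and the fit was tested on simulated data. Genes were named from GEO's platform annotation, and positions and starts came from RefSeq GRCh38.p14.

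The members and gene lists were chosen with earlier results of these data known. Named were all members called or at an absolute log2 difference of at least 0.9, the 3 brightest of each class, hosts with gaps of at least 0.7 or the 3 smallest, every called host-alone probe set, and up to 6 called members of each gene list, otherwise the 2 with the largest difference. Further genes were named after their values were seen. Alternatives were no variation filter, a stricter filter on low signals, other normalizations and limits, a replicate block, a trended robust fit, no _x_at or _s_at probe sets, 1 probe set per annotation or host, and each array left out.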

Additional observations from a re-analysis of the deposited data

Results flagged for a closer look

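A pair of control probe sets outside the main measurement gave a signal well above its level in the DMSO arrays. The control AFFX-M27830_5_at, whose gene was not named in the tables used here, read 10.42, 10.33 and 10.30 in DMSO and 13.38, 13.34 and 13.35 in anlotinib, a log2 difference of 3.01. The control AFFX-M27830_M_at read 9.98, 9.62 and 9.65 against 11.86, 11.52 and 11.96, a log2 difference of 2.03. The third control of that series, AFFX-M27830_3_at, differed by 0.08, and the groups overlapped there. Its relation to the snoRNA values was not tested.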

How the results depend on the processing

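Counts of calls moved with the filter on low signals, the probe sets admitted and the fold limit. With the lowest 40% of signals left out, 12 snoRNA-annotated probe sets were called in place of 21, their median log2 difference was 0.65 in place of 0.33, H/ACA exceeded C/D annotations by 0.79 in place of 0.28, and 5 host-alone probe sets were called in place of 8. Without _x_at and _s_at probe sets, 9 members and 17 probe sets of the gene lists were called (34 in the main fit), and the gap to the host was 0.24 in place of 0.13. Fewer probe sets enter both of these. At a limit of 1.5-fold, 34 members, 16 host-alone probe sets and 74 of the gene lists were called. Leaving out each array in turn gave 21 to 22 called members, a median of 0.28 to 0.40, a gap between classes of 0.24 to 0.31, a gap to the host of 0.11 to 0.15, 8 to 9 host-alone calls, 32 to 36 calls in the gene lists and an ACTB difference of 0.04 to 0.07. SNORA80A passed the limit without the third DMSO array (1.01), and SNORD48/SNHG32 without the first anlotinib array (1.03). Values near 0 changed sign in the EEF1A1 member after a second quantile normalization (0.0044 from -0.03) and in 1 SCARNA20 probe set without the third DMSO (0.013) or the first anlotinib array (0.020), its lowest such value being -0.12 and its highest 0.020, and the cause was not tested. Samples of the same number did not deviate together (r = 0.167, 0.00625 and -0.145), so the labels share only a number, and the replicate block left 21 members called. The remaining comparisons, 82 for the main results and 392 for single probe sets, were classed as the same. For the main results that class includes counts that moved, such as 25 calls in the gene lists (34 in the main fit) with the lowest 40% of signals left out.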

Other observations

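The controls AFFX-HUMRGE/M10098_3_at, AFFX-HUMRGE/M10098_5_at and AFFX-HUMRGE/M10098_M_at, also not named in the tables used here, were higher in anlotinib by 0.31, 0.20 and 0.34 on the log2 scale, with every anlotinib array above every DMSO array.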
